A study of Mus musculus with 5 samples.

Results

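The genes described here are 38 genes of heart and smooth muscle, chosen by name from 18193 genes on the array. The choice was made with earlier results of these data known. They comprise 18 genes of the sarcomere, 8 transcriptional regulators, 4 genes of calcium handling, 2 natriuretic peptide hormones, 2 intermediate filament proteins and 4 smooth muscle genes. Each gene was read from a single probe set, the one brightest on average across the 5 arrays among those annotated with that symbol alone, and all 38 had one. The cells were derived from mouse embryonic stem cells and differentiated towards pancreas on gelatin, so muscle is not the lineage that the culture was aimed at. They were sampled at day 5 as untreated cells, at day 6 with and without 2 µM MPA, and at day 8 with and without 2 µM MPA. MPA was added to day 5 cells, giving 1 day of exposure at day 6 and 3 days at day 8, and the labels do not write the abbreviation out. Each of the 5 groups was 1 array, the labels name neither the cell line nor a genotype, and no spread between cultures can be given.

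Heart muscle contracts through sarcomeres, in which myosin heavy and light chains pull on actin filaments and the troponin and tropomyosin proteins gate that pull in response to calcium. Smooth muscle lacks sarcomeres and uses its own actin, myosin and actin-binding proteins, and many genes of both programmes are switched on through serum response factor (SRF) and its partner myocardin at a DNA element called the CArG box. In the embryo the heart forms from mesoderm close to the foregut endoderm. Early heart cells also express smooth muscle genes, and smooth muscle actin and transgelin are found as well in mesenchymal cells that are not muscle.

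Values are MAS5 signals, scaled by the authors so that every array had a trimmed mean of 500. Signals under 86.8, the median over all probe sets that were not controls, are too dim to order and were raised to that floor before log2 differences were taken. A fold with 1 of its 2 arrays at the floor is a lower bound, written "at least". Genes with at least 1 of the 2 arrays of a comparison above the floor are called measured in it. The arrays were alike in the share of probe sets above the floor (46.7 to 51.9%). RNA integrity can be read from probe sets at both ends of Gapdh, whose 3' over 5' ratio was 1.08 at day 5, 1.31 with MPA and 1.19 without at day 6, and 1.57 with MPA and 1.55 without at day 8. The same ratio of Actb was 2.08 at day 5, 3.06 with MPA and 3.04 without at day 6, and 2.71 with MPA and 2.81 without at day 8. Among these bulk samples, fewer cells of a type and less RNA per cell cannot be told apart.

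Of the 38 genes, 7 lay above the floor on all 5 arrays, 25 on some and 6 on none. The 6 were the sarcomere genes Actn2, Tnnt2, Tnni1, Myom1 and Csrp3 and the calcium regulator gene Pln. For Pln this holds on the chosen probe set, while others reached 94.99 in the day 8 control and 89.35 at day 5. Tnnt2, which encodes cardiac troponin T, reached 82.9 on its brightest array and Actn2, of the Z-disc protein alpha-actinin, 28.4. Only part of the heart programme was therefore measurable. Of 8 defining cardiomyocyte markers, 2 lay above the floor with MPA at day 8 (Myl7 and Nppa) and 3 in the day 8 control (Myl7, Nppa and Ryr2, the last at 91.7). Of 6 smooth muscle markers, all 6 lay above it with MPA at day 8 and 5 in the day 8 control. The heat map of signals shows the bright and the dark part of the set.

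**Figure D1:**
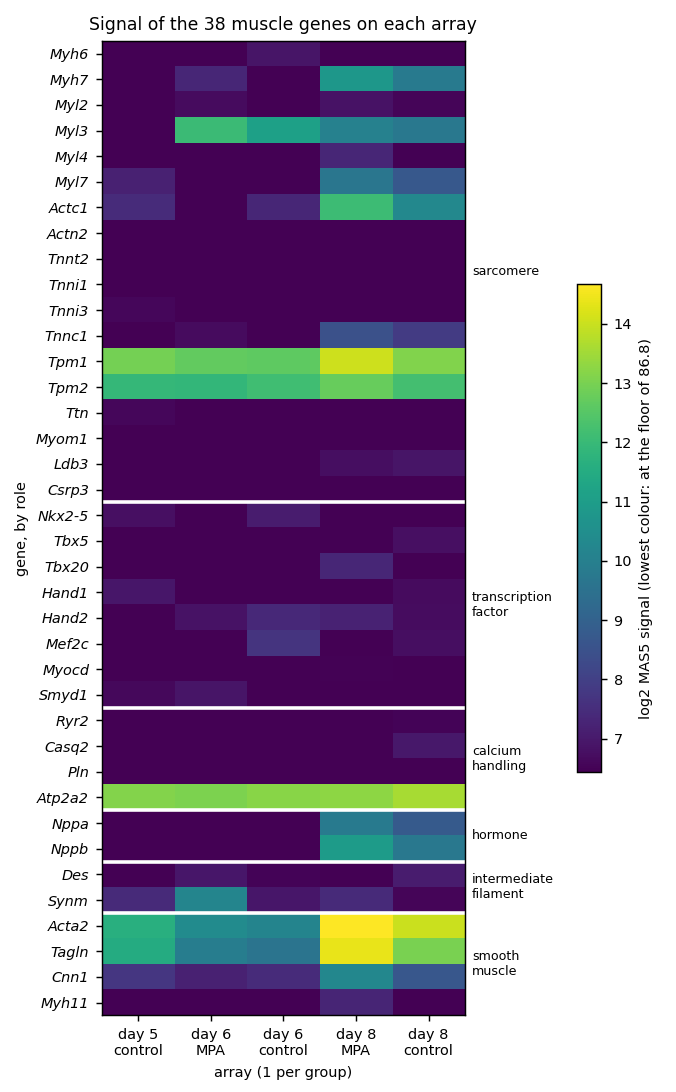
Signal of each of the 38 genes (rows, grouped by role) on each of the 5 arrays (columns, 1 array per group), as log2 MAS5 signal with values under 86.8 drawn at the floor. Acta2, Tagln, Tpm1, Tpm2 and Atp2a2 are bright on every array, and Myh7, Actc1, Nppa and Nppb are bright at day 8. Myl3 is brightest on the day 6 arrays and still bright on the day 8 arrays.

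The untreated cells show when the genes appeared without MPA. The smooth muscle genes Acta2 and Tagln were lower at day 6 than at day 5 and then far higher at day 8, and Cnn1 ran the same way with smaller differences. Acta2, of smooth muscle alpha-actin, had signals of 3156 at day 5, 1127 at day 6 and 16584 at day 8 in the controls. Tagln, of the actin-binding protein transgelin (SM22), had 2879, 784 and 8338 at the same days. Both were thus lowest at day 6, by 2.80-fold and 3.67-fold against day 5, and at day 8 they were 14.7-fold and 10.6-fold above day 6. Cnn1, of calponin, a regulator of smooth muscle contraction, had 216 at day 5, 177 at day 6 and 410 at day 8. The fourth smooth muscle gene, Myh11, which encodes smooth muscle myosin and is the marker most specific to mature smooth muscle, was below the floor on all 3 control arrays, with 55.6, 17.6 and 5.6. Acta2 was read by a probe set of the _s_at kind, which can match several transcripts, and its other 2 probe sets were below the floor on all 5 arrays.

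Several heart genes were also high at day 8, after signals near or below the floor at the earlier days. Myh7, the slow or beta myosin heavy chain, had a signal of 26.8 at day 5, 13.6 at day 6 and 885 at day 8, at least 10.2-fold above either earlier day. Actc1, of cardiac alpha-actin, had 173 at day 5, 161 at day 6 and 1240 at day 8, which is 7.15-fold above day 5. One belongs to the thick and the other to the thin filament, and neither was above its day 5 signal at day 6.

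Myl7, the atrial regulatory myosin light chain, had 147 at day 5, 84.3 at day 6 and 415 at day 8. Tnnc1, the troponin C of heart and slow skeletal muscle, had 31.2, 9.6 and 235. Nppa and Nppb, the atrial and brain natriuretic peptide genes, stood at 47.2 and 9.0 at day 5, at 52.2 and 4.5 at day 6, and at 437 and 859 at day 8. Nppb was thus at least 9.90-fold above either earlier day, and Nppa at least 5.04-fold.

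Myl3, the ventricular and slow skeletal essential myosin light chain, kept a time of its own. On its brightest probe set it had 7.1 at day 5, 2203 at day 6 and 851 at day 8. The day 6 signal was at least 25.4-fold above day 5, the fifth highest difference of the 12611 genes measured in that comparison. Its other 2 probe sets had 1227 and 1004 at day 6, against 147 and 9.0 at day 5, so that the one above the floor at day 5 gave 8.36-fold. All 3 probe sets peaked at day 6. Myh7 and Tnnc1 were below the floor in the day 6 control.

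Among the 38, 27 were measured for day 8 against day 5 in the controls, of which 9 were 2-fold or more higher and 0 were lower by that much. The same fold was passed by 9.61% of all 12784 measured genes upwards and by 7.27% downwards. The median log2 difference of the 27 was 0.43, against 0.04 over all measured genes. For day 6 against day 5, 2 of 19 were 2-fold higher (Myl3 and Mef2c) and 2 were 2-fold lower (Acta2 and Tagln), beside 5.46% and 4.4% of all genes. For day 8 against day 6, 9 of 25 were 2-fold higher and 1 was 2-fold lower, beside 7.07% and 6.43%. Counting only genes above the floor on both arrays, 4 were 2-fold higher at day 8 against day 5, because 5 of the 9 are bounds. The 3'/5' ratios of Gapdh and Actb were both lowest at day 5, as given above, and their part in these differences was not tested.

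**Figure D2:**
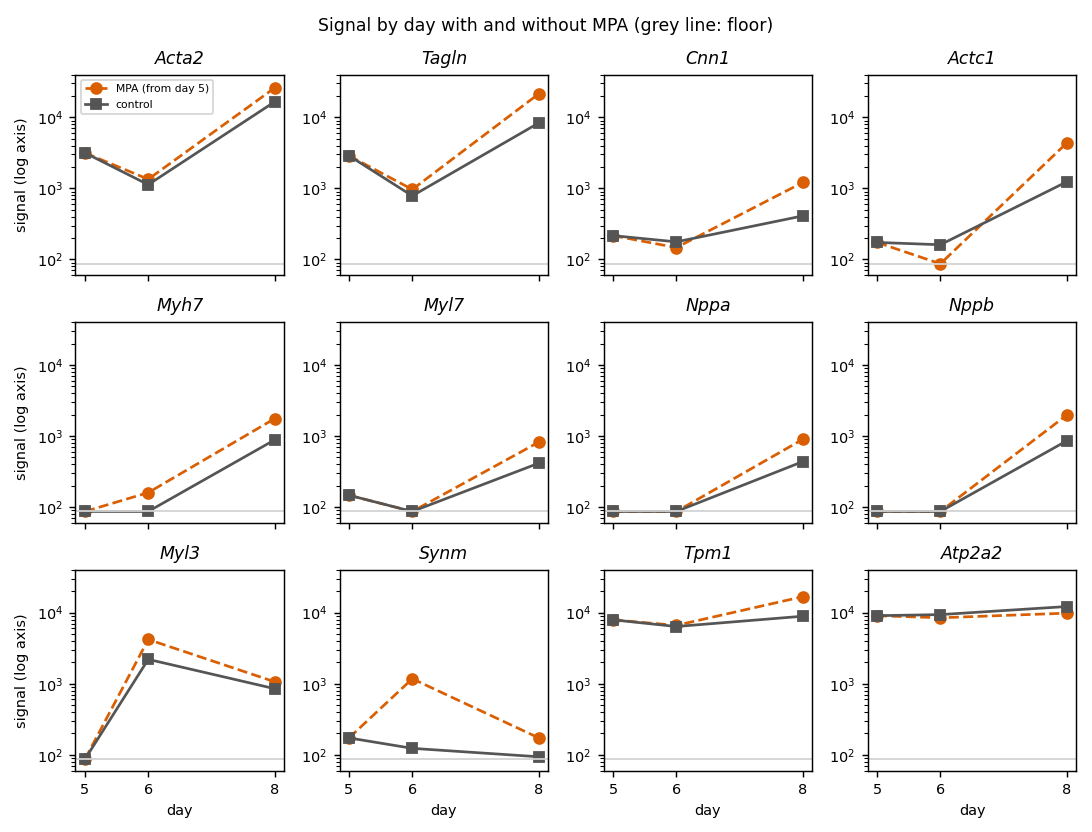
Signal (log axis) of 12 of the genes at day 5, day 6 and day 8, with MPA (circles, dashed) and without (squares, solid), 1 array per point, with signals under the floor of 86.8 drawn on the grey floor line. Both courses start from the single day 5 array. For Tagln, Cnn1, Actc1, Myh7, Nppa and Nppb the MPA point lies above the control point at day 8, and for Synm and Myl3 the widest gap on the probe sets plotted is at day 6.

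With MPA at day 8 the bright filament genes of the sarcomere were higher than in the day 8 control. Actc1 had a signal of 4373 with MPA and 1240 without at day 8, and of 70.0 with MPA and 161 without at day 6. It was 3.53-fold higher at day 8, the 47th highest difference of 12599 measured genes, and at least 1.85-fold lower at day 6. The direction at the 2 days was therefore opposite, with the day 6 array below the floor.

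Myh7 had 1761 with MPA and 885 without at day 8, which is 1.99-fold, and 160 with MPA and 13.6 without at day 6, at least 1.84-fold. Its neighbour Myh6, the alpha heavy chain of the adult mouse heart, was at 16.8 with MPA and 2.2 without at day 8. Its highest signal on any array was 120, in the day 6 control. The beta chain, which prevails in the embryonic mouse ventricle, was therefore the only one of the pair that the arrays measured well.

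The regulatory light chain gene Myl7 had 822 with MPA and 415 without at day 8, 1.98-fold higher, and was below the floor at day 6 with and without MPA (6.1 with MPA and 84.3 without). The atrial essential light chain gene Myl4 had 161 with MPA and 43.3 without at day 8. The ventricular light chain gene Myl2 stayed near the floor, at 114 with MPA and 92.9 without. Myl3 had 1064 with MPA and 851 without at day 8, 1.25-fold higher, and 4195 with MPA and 2203 without at day 6, 1.90-fold higher. Its other 2 probe sets also lay higher with MPA at day 6, by 1.56-fold and 1.72-fold. At day 8 they were 1.89-fold (771 with MPA and 407 without) and 1.02-fold higher, so the probe sets disagree on which day had the wider gap.

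The thin filament genes other than actin differed less. Tnnc1 had 355 with MPA and 235 without at day 8, which is 1.51-fold. Tpm1, a tropomyosin that many cell types besides muscle make, had 16810 with MPA and 8919 without, 1.88-fold higher. All 3 other probe sets of Tpm1 above the floor at day 8 were higher with MPA too, one of them at 3792 with MPA and 1623 without. Tpm2 had 6964 with MPA and 4681 without, but 1 of its 4 probe sets went the other way, with 52.4 with MPA and 137 without. The cardiac troponin I gene Tnni3 was at 2.9 with MPA and 52.5 without, both below the floor, and Ttn, of the giant spring protein titin, at 80.1 with MPA and 68.0 without. Ldb3, of a Z-disc protein, had 107 with MPA and 121 without, a difference close to the floor.

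The natriuretic peptide genes were both more than 2-fold higher with MPA at day 8. Nppb had 1981 with MPA and 859 without, 2.31-fold higher. Nppa had 901 with MPA and 437 without, 2.06-fold higher, with a log2 difference of 0.91 when the floor was added to all signals. Neither was measured at day 6, where Nppb stood at 2.4 with MPA and 4.5 without.

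The smooth muscle genes were all 4 higher with MPA at day 8, beside 48.1% of all measured genes, and the 3 bright ones differed little at day 6. Cnn1 had 1211 with MPA and 410 without at day 8, 2.96-fold higher, and 147 with MPA and 177 without at day 6. Tagln had 21450 with MPA and 8338 without at day 8, 2.57-fold higher, and 965 with MPA and 784 without at day 6. Acta2 had 25990 with MPA and 16584 without at day 8, 1.57-fold higher, and 1344 with MPA and 1127 without at day 6. These signals made Acta2 and Tagln the brightest of the 38 genes at day 8 with MPA. Myh11 was above the floor with MPA at day 8 only, at 158 against 5.6 in the control, at least 1.82-fold. Its second probe set did not bear this out, with 3.8 with MPA and 11.0 without.

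Synm, which encodes synemin, an intermediate filament protein that joins desmin filaments to the membrane and Z-disc, differed most at day 6. It had 1175 with MPA and 123 without at day 6, 9.54-fold higher, the highest of 12240 genes measured in that comparison. At day 8 it had 173 with MPA and 93.7 without. Its second probe set also lay higher with MPA at day 6, with 207 with MPA and 5.7 without (at least 2.38-fold), and lower at day 8, with 18.9 with MPA and 114 without. Des, of desmin, the main muscle intermediate filament, had 124 with MPA and 91.0 without at day 6, 1.36-fold higher, while its second probe set was lower there, with 13.0 with MPA and 155 without. At day 8 Des had 15.4 with MPA and 133 without, at least 1.53-fold lower.

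The transcriptional regulators stayed dim throughout. The highest signal of any of the 8 on its chosen probe set was 203, for Mef2c, a MADS-box factor of heart and other muscle, in the day 6 control. Mef2c had 36.5 with MPA at day 6, at least 2.34-fold lower. Of its 4 other probe sets, 1 was lower there too, with 10.8 with MPA and 97.8 without, and the rest were no higher than 86.8 on either array. At day 8 Mef2c had 46.6 with MPA and 106 without, at least 1.225-fold lower. Another of its probe sets had 5.95 with MPA and 157 without at day 8, at least 1.81-fold lower, and the rest were below the floor there. Hand2, a factor of the right ventricle and outflow tract, had 114 with MPA and 166 without at day 6 and 149 with MPA and 104 without at day 8. Tbx20 had 161 with MPA and 47.3 without at day 8, while a second probe set had 93.1 with MPA and 2.3 without and the third was below the floor. Nkx2-5, an early heart factor, had 60.7 with MPA and 135 without at day 6, at least 1.56-fold lower, and was below the floor at day 8 (78.9 with MPA and 8.5 without). Tbx5, another, had 27.4 with MPA and 111 without at day 8, at least 1.28-fold lower, and was below the floor at day 6 (6.7 with MPA and 7.8 without). Myocd, the SRF partner of smooth and heart muscle, had 89.9 with MPA and 68.4 without at day 8, at the floor in effect. Smyd1 and Hand1, which act in the early myocardium, were no brighter than 124 on their chosen probe sets. A second probe set of Hand1 had 8.6 with MPA and 203 without at day 6, at least 2.34-fold lower. The chosen one was below the floor on both of those arrays. At day 8 the chosen probe set of Hand1 had 8.85 with MPA and 102 without, at least 1.177-fold lower. Smyd1 had 120 with MPA and 6.75 without at day 6, at least 1.38-fold higher. Its other probe sets measured at day 6 ran the other way, with 7.53 with MPA and 119.8 without, and with 14.6 and 89.1.

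Of the 4 calcium handling genes, Atp2a2 was bright on all 5 arrays and the rest were dim. Atp2a2, of the SERCA2 calcium pump, which most cells make in 1 of its forms, had 9854 with MPA and 12211 without at day 8, and 8475 with MPA and 9398 without at day 6. Ryr2, of the calcium release channel of heart cells, had 67.2 with MPA and 91.7 without at day 8. Casq2, of the calcium store protein calsequestrin, had 68.2 with MPA and 126 without. The 3 measured at day 8 were all lower with MPA, Atp2a2 by 1.24-fold, Ryr2 by at least 1.06-fold and Casq2 by at least 1.45-fold. Ryr2 and Casq2 were above the floor there only without MPA, Ryr2 barely so. Of the 10 measured sarcomere genes 9 were higher, beside 48.1% of all measured genes.

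**Figure D3:**
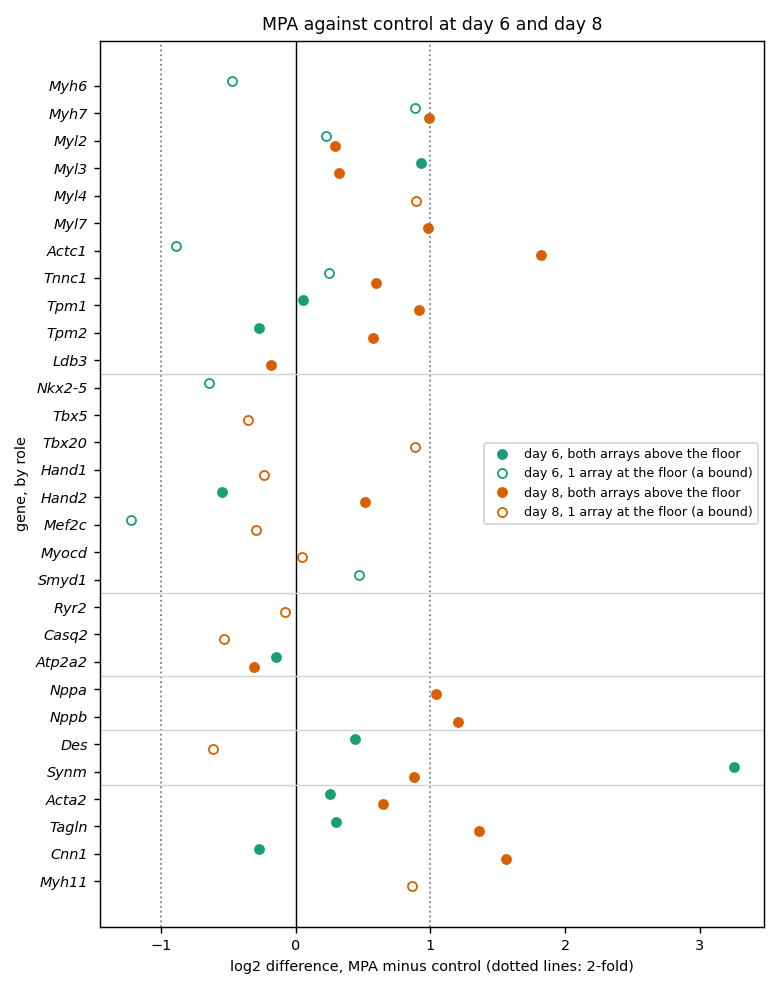
log2 difference of MPA minus control for each measured gene (rows, grouped by role as in the heat map) at day 6 (green) and day 8 (orange), with 1 array per group. Filled points have both arrays above the floor, open points are lower bounds in size, and dotted lines mark 2-fold. Synm at day 6 (3.25) stands far to the right, and Actc1, Cnn1, Tagln, Nppb and Nppa at day 8 lie beyond the 2-fold line.

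Counted over the set, 27 of the 38 were measured for MPA against control at day 8, of which 19 were higher and 8 lower by any amount. Of all measured genes 48.1% were higher by any amount. Those higher by 2-fold or more were 5, namely Actc1, Cnn1, Tagln, Nppb and Nppa, and 0 were lower by that much. Of all 12599 measured genes, 3.72% were 2-fold higher and 3.18% 2-fold lower. The median log2 difference was 0.59 over the 27 genes and -0.02 over all measured genes. By role it was 1.11 over 4 smooth muscle genes, 0.74 over 10 sarcomere genes, -0.09 over 6 regulators and -0.31 over 3 calcium handling genes. Counting only genes above the floor on both arrays, it was 1.36 over 3 smooth muscle genes and 0.59 over 9 sarcomere genes. Only 1 regulator (Hand2, 0.52) and 1 calcium handling gene (Atp2a2, -0.31) were then left, so those role medians rest mostly on bounds. The sign of a bound is set by which array passed the floor. At day 6, 18 were measured, 1 was 2-fold higher (Synm) and 1 was 2-fold lower (Mef2c), beside 4.02% and 3.15% of all 12240 genes, and the median was 0.14 against 0.02. These differences are between single arrays and have no test.

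A test was possible only on what both days share. In a limma fit of an MPA term and a day factor to the 4 arrays of days 6 and 8, 0 of the 19 genes above the floor on 2 or more of them passed a Benjamini-Hochberg adjusted p of 0.05, and 1 of 11599 genes passed in all (0.00862%). The error of this fit, with 1 residual degree of freedom, comes from the disagreement between days, and not from the spread between cultures. For each gene eBayes moderates it with the disagreement of all genes in the fit. The SEs and p-values given here use that moderated error, not the gene's own alone. At an unadjusted p under 0.05 there were 5 of the 19, all higher with MPA, beside 6.37% of all genes in either direction. They were Synm, with a mean log2 difference of 2.07 (SE 0.57), Myh7 with 0.94 (SE 0.35), Tagln with 0.83 (SE 0.26), Myl3 with 0.63 (SE 0.25) and Acta2 with 0.45 (SE 0.19). The day 6 control signal of Myh7 (13.6) was raised to the floor, so its mean and SE depend on the floor. Its day 6 log2 difference was 0.88, and 3.44 with the floor at percentile 25. The lowest adjusted p was 0.584 in this limma fit, for Synm, which was higher with MPA at both days on its chosen probe set but not at day 8 on its second. It ran from 0.505 to 1 over the alternatives.

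The step from day 6 to day 8 within the MPA cultures and the same step within the controls use different arrays, and their values can be set side by side. With MPA, Actc1 stood at least 50.4-fold above its day 6 level at day 8, the highest of 12257 genes measured there, and without MPA 7.71-fold above it. Tagln was 22.2-fold higher with MPA and 10.6-fold higher without, and Acta2 19.3-fold and 14.7-fold. For Nppb the step was at least 22.8-fold with MPA and at least 9.90-fold without, for Myh7 11.0-fold and at least 10.2-fold, and for Cnn1 8.26-fold and 2.32-fold. Both day 6 signals of Nppb were raised to the same floor, so its steps differ only by the day 8 signals. Synm and Myl3 ran the other way with MPA, 6.81-fold and 3.94-fold lower at day 8 than at day 6, against 1.31-fold and 2.59-fold lower without. In all, 10 of 23 genes were 2-fold higher and 2 were 2-fold lower across this step with MPA, beside 7.64% of all genes in each direction.

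Promoter sequence was read for those of the 38 genes that had an entry, to show whether the SRF element is spelled out beside their start sites. RefSeq promoter windows (GRCm38.p6, 250 bases before to 50 after the start) were found for 32 of the 38 genes, with 40 windows. Tagln, Myocd, Myh11, Tbx5, Atp2a2 and Hand1 had no entry. The CArG box was found on either strand in 6 of the 40 windows, in Actc1, Ldb3, Myl3, Myl7 and Myom1, and in 1.63% of all 32851 windows. With at most 1 letter off, it was found in 19 of the 40 and in 21.1% of all windows. TATAAA was found in 9 of the 40 windows (13.6% of all), the TEAD element CATTCC in 11 (14.7%), and AGATAA, which GATA factors bind, in 6 (11.2%), each searched on both strands. The windows of 1 gene can overlap, and a match is not a binding site.

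The 150 bases before the start site are shown for 6 genes, 5′ to 3′ on the gene's strand, with CArG boxes and their spellings with 1 letter off in capitals. Actc1 and Des had the highest and the lowest log2 difference with MPA at day 8, and Acta2 and Cnn1 are smooth muscle genes. Myl7 and Myl3 are light chain genes that were added because they have a full CArG box. Nppa and Nppb, also 2-fold higher with MPA at day 8, are not printed. In its window Nppa had a box with 1 letter off, and Nppb had neither spelling.
Actc1 (chr2:114052876-114053025, minus strand): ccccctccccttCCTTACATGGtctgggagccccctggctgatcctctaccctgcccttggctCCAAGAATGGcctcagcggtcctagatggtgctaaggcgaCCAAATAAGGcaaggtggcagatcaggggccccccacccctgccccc
Acta2 (chr19:34255374-34255523, minus strand): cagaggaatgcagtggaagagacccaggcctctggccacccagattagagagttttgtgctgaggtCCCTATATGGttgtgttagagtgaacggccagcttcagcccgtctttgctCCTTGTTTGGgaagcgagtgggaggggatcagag
Myl7 (chr11:5898783-5898932, minus strand): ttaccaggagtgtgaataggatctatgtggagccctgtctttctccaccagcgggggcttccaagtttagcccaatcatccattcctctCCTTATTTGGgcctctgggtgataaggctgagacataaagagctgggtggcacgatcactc
Myl3 (chr9:110763528-110763677, plus strand): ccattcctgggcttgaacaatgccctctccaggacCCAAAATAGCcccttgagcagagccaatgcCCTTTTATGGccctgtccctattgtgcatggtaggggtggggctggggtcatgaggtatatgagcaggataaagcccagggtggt
Cnn1 (chr9:22099103-22099252, plus strand): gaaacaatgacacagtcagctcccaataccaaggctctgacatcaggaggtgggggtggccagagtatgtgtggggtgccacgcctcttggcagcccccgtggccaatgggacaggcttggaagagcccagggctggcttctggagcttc
Des (chr1:75360142-75360291, plus strand): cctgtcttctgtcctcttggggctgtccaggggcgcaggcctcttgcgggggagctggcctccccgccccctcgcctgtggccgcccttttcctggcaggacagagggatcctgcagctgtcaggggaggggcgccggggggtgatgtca

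In Actc1 the full CArG box begins 47 bases before the start site and those with 1 letter off begin 138 and 87 bases before it. In Acta2 the 2 spellings with 1 letter off begin 84 and 34 bases before the start, and in Myl7 the full box begins 61 bases before it. In Myl3 the full box begins 85 bases before the start. Myl3 peaked at day 6 and Actc1 and Myl7 at day 8, and a part of the box in this timing was not tested. Cnn1, 2.96-fold higher with MPA at day 8, and Des, below the floor there, had none in these 150 bases.

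Further genes of the same programmes were taken from lists fixed by name. These lists too were chosen with earlier results of these data known, so their counts are not a separate test. Of 35 further smooth muscle and SRF target genes, 31 were measured for MPA against control at day 8, of which 29 were higher, 9 of them by 2-fold or more, and 0 were 2-fold lower (median log2 difference 0.58), beside 48.1% of all measured genes higher by any amount, 3.72% higher by 2-fold and 3.18% lower by 2-fold. They include Myl9, the smooth muscle regulatory light chain, with 3466 with MPA and 1531 without, and Pdlim3, of an actin-associated LIM protein, with 486 with MPA and 146 without. At day 6, 21 of 26 were higher (median 0.47), beside 51.5% of all measured genes. Myl9 was already 2.52-fold higher there, whereas Tagln and Acta2 were 1.23-fold and 1.19-fold higher. Srf itself had 1169 with MPA and 566 without at day 8. That list holds Des, which is also one of the 38, and shares Ankrd1 with the further heart muscle genes.

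Of 44 further heart muscle genes, 21 were measured at day 8, of which 5 were 2-fold higher and 1 was 2-fold lower with MPA (median 0.37), beside the same shares of all genes. Mybpc3, the cardiac myosin-binding protein C, had 693 with MPA and 200 without, 3.46-fold higher, and Nexn, of the Z-disc protein nexilin, 1125 with MPA and 483 without. Rbm20, a splicing factor that acts on titin, was 2.07-fold lower. Of 34 heart field and cardiac mesoderm genes, 30 were measured, with 7 higher and 3 lower by 2-fold or more (median 0.33). Of those 7, 5 (Tcf21, Tbx18, Wt1, Pdgfra and Srf) are also in the epicardium, fibroblast or SRF lists, so the lists' counts are not separate. Isl1, a factor of the second heart field and also of endocrine and motor neuron precursors, had 3249 with MPA and 617 without, 5.27-fold higher. Irx3 and Irx5 were 7.55-fold and 4.48-fold lower.

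**Figure D4:**
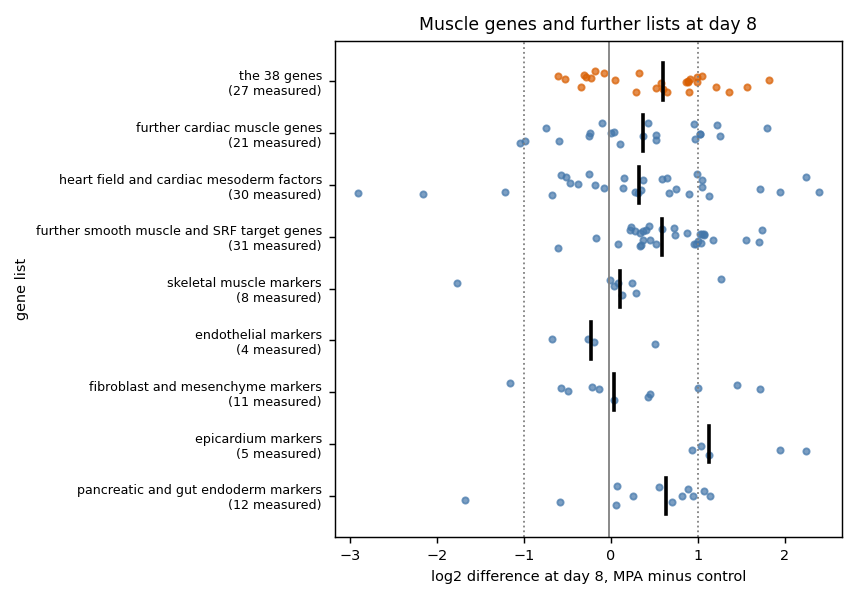
log2 difference of MPA minus control at day 8 for each measured gene of the 38 (orange, top) and of the further lists (blue), 1 point per gene, with the list's median as a black bar, the median of all measured genes as a grey line and 2-fold as dotted lines. The medians are 0.59 for the 38, 0.58 for the smooth muscle and SRF targets, 1.13 for the epicardium and 0.04 for the fibroblast and mesenchyme markers. Points are spread vertically only to keep them apart.

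Markers of other cell types were read beside these genes at day 8, where 48.1% of all measured genes were higher with MPA by any amount. All 5 measured of the 6 epicardium markers were higher with MPA, among them Tcf21 at 412 with MPA and 5.8 without and Tbx18 at 518 with MPA and 135 without, and the 6 summed to a signal of 2205 with MPA and 744 without. The 13 fibroblast and mesenchyme markers summed to 58203 with MPA and 43045 without, with 6 higher and 5 lower of 11 measured. Vim, with 37097 with MPA and 27212 without, and Fn1, with 9349 with MPA and 4653 without, made up most of both sums and are expressed by many cell types. The 7 defining markers summed to 10253 with MPA and 9662 without, with Pdgfra 3.28-fold higher and Postn 2.24-fold lower. The 12 pancreatic and gut endoderm markers summed to 113609 with MPA and 66612 without, with 10 of 12 higher. Most of both sums came from the keratin genes Krt8, with 46148 with MPA and 28283 without, and Krt18, with 42823 with MPA and 24269 without, which epithelia of many kinds express. The 4 defining markers summed to 4303 with MPA and 3600.5 without, with Sox17 3.20-fold lower, at 485 with MPA and 1550.3 without. Of the 17 skeletal muscle markers, 6 lay above the floor with MPA and 3 without, and Acta1, of skeletal alpha-actin, had 2377 with MPA and 988 without. Of 7 defining ones, 5 lay above it with MPA and 1 without, and the 4 besides Acta1 (Myod1, Tnnt3, Tnni2 and Ckm) were near it, between 91.7 and 106 with MPA. Myf5 and Myog, also among the 7 defining ones, were below the floor on all 5 arrays on their chosen probe sets. Pax7, of muscle and neural precursors, had 4.3 with MPA and 297 without, at least 3.43-fold lower. The 12 endothelial markers summed to 1021 with MPA and 1009 without. Flt1, a VEGF receptor gene, made up most of it, with 663 with MPA and 467 without, and the other 3 measured were lower with MPA, among them Kdr at 76.0 with MPA and 139 without. The 6 defining markers summed to 190 with MPA and 219 without, and Pecam1, Tie1, Tek and Emcn were below the floor throughout on their chosen probe sets. The part of the epicardial, mesenchymal and endodermal markers in the differences of the muscle genes was not tested.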

How the data were processed

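Biotin-labelled cRNA of 5 samples was hybridised to 1 Affymetrix array each, per the labels' protocols. The authors deposited 1 linear signal intensity per probe set, made with MAS5 per the submitters' processing notes; the version and settings are not given in the sources used. Of 45101 probe sets, 64 were controls, 34945 had 1 gene symbol in the platform annotation, 932 had several and 9160 were unnamed here. Signals were floored at the median (86.8) and taken to log2, and genes 2-fold apart were counted, with 1 array per group and no test. MAS5 values are noisy where probe sets are dim, and the bacterial control trpnX reached 59.4. One fit used limma 3.58.1 (R 4.3.3; lmFit, eBayes with trend and robust) on genes with 2 or more of the 4 arrays above the floor, and was tested on simulated data. Other steps used Python 3.11.15, numpy 2.4.6 and pandas 2.3.3. The members and lists were chosen with earlier results of these data known. All members are accounted for. From further lists, up to 5 genes with the largest differences per comparison, and defining markers, could be named; Srf, Vim and Krt8 were named after their values were seen. The promoters of Actc1, Des, Acta2 and Cnn1 followed a rule, and those of Myl7 and Myl3 were added for their match. The alternatives were 2 other scalings, floors at the percentiles 25 and 65, an added floor, the mean over probe sets, and leaving out probe sets ending in _s_at, _x_at or _a_at. A count of genes above the floor on both arrays was added after seeing the data. For limma, other day terms, eBayes settings and no filter were also tried.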

Additional observations from a re-analysis of the deposited data

Results flagged for a closer look

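Among those of the 38 genes that were measured with MPA against control at both days, 5 differed in opposite directions. They were Actc1, Cnn1, Hand2, Des and Tpm2. The share of all genes that did so was not counted, so the number is not read as particular to these genes. Actc1 had a log2 difference of -0.89 or beyond at day 6 and of 1.82 at day 8, which makes the day 8 difference 2.71 higher. Hand2 had -0.55 at day 6 and 0.52 at day 8, which makes it 1.06 higher. Cnn1 had -0.27 at day 6 and 1.56 at day 8 (1.83 higher), and Tpm2 -0.27 and 0.57 (0.84 higher), though not all probe sets of Tpm2 ran this way. Des had 0.44 at day 6 and -0.62 or beyond at day 8, a difference of -1.06, but its second probe set was lower with MPA at day 6. With 1 array per group the difference between the days was not tested, and the Hand2 signals lay between 104 and 166 on these 4 arrays, close to the floor.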

How the results depend on the processing

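The genes at least 2-fold higher with MPA at day 8 numbered 5 or 6 under every alternative except the floor at percentile 25, which gave 9. All 5 were among them except where the floor was added, which kept 4, losing Nppa and gaining Myh11. None of the log2 differences of genes 2-fold apart changed sign under any alternative. The floor at percentile 25 lets dim signals in and gave 8 genes 2-fold lower with MPA at day 8, 10 higher and 9 lower at day 6, and 16 higher and 5 lower for day 8 against day 6 with MPA. In the controls it gave 6 higher and 12 lower for day 6 against day 5, 23 and 3 for day 8 against day 6, and 17 and 2 for day 8 against day 5. That floor also turned the sign of the median difference with MPA over the measured members at day 6, which was then -0.048 on the log2 scale. Adding the floor to all signals gave 3 higher and 2 lower with MPA at day 6, beside 3.39% and 4.02% of all measured genes. It gave 1 lower with MPA at day 8, and 3 and 1 lower for control day 8 against day 6 and day 5. The single gene lower with MPA at day 6 (Mef2c) was 0 with the floor at percentile 65, when probe sets were averaged and when both arrays had to lie above the floor. For control day 6 against day 5 the count higher was 1, 1 and 0 under those 3, and without _s_at, _x_at and _a_at probe sets 1 was lower. Requiring both arrays above the floor gave 4 higher for control day 8 against day 6, 4 against day 5, and 6 for day 8 against day 6 with MPA. Quantile normalization gave 2 and 1 lower for control day 8 against day 6 and day 5. Averaging probe sets gave log2 differences with MPA of -0.12 for Synm at day 8 and -0.50 for Des at day 6. In limma 0 members passed under all 11 alternatives, and 0 to 6 had an unadjusted p under 0.05. No paired analysis was possible because each group has 1 array and no replicate pairs; the limma fit sets MPA against control within each day, and without the day term 0 of its 19 genes had an unadjusted p under 0.05. Signals close to the floor limit what dim members can show.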
